A study of Mus musculus with 9 samples.

Results

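The 50 genes described here encode proteins of DNA replication and mitosis. They were chosen by name from textbook roles, with earlier results of these data known. They were matched by symbol among the 25124 genes of the deposited table, where all 50 were found. The set holds 17 genes of DNA replication, the 2 cyclin E genes Ccne1 and Ccne2, and 31 genes of mitosis. All 50 passed the filter of at least 1 TPM (a measure of transcript abundance scaled for length and library total) in at least 4 libraries, which 15704 genes passed in all.

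RNA was sequenced from whole ear tissue of C57BL/6 mice on day 8 after the skin was first swabbed with the skin bacterium Staphylococcus epidermidis (strain LM087), which was reapplied every other day. In 4 libraries the mice carried the bacterium and had received anti-CTLA-4, an antibody that blocks the T cell checkpoint receptor CTLA-4. In 5 libraries the mice carried the bacterium alone (S. epi alone). Both groups carried the bacterium, and skin without it was not analysed here. Clone, dose and schedule of the antibody, and age and sex of the mice, are not stated in these sources. Nothing in the labels ties a replicate number to a separate animal, and each p-value therefore measures only how these samples spread, which may be technical.

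A cell that divides copies its DNA in S phase and separates the copies in mitosis. The Mcm2 to Mcm7 helicase is loaded at origins by Cdc6 and Cdt1 before S phase. In S phase it is started with Cdc45 and the GINS complex, while ribonucleotide reductase supplies nucleotides and the Pcna ring clamps the polymerases to DNA. In mitosis cyclin B and Cdk1 drive entry, Aurora and checkpoint kinases watch the attachment of chromosomes, kinesins move them, and the anaphase-promoting complex ends the phase. In skin these genes are used by dividing basal keratinocytes, by growing hair follicles and by any immune cell that divides in the tissue. RNA from whole tissue does not tell fewer cells of a type from less RNA per cell.

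The promoters of the members were compared by class, since promoter sequence was not used to choose them. Replication genes are known as targets of E2F factors, and mitosis genes as targets of a complex that binds the cell cycle genes homology region (CHR), often beside a CCAAT box bound by NF-Y. RefSeq promoters of 300 bases (250 before to 50 after the start, GRCm38.p6, the mm10 assembly) were matched for 40 of the 50 members. There was no entry for Mcm4, Gins1, Gins2, Ccne2, Ccna2, Cdc25c, Aurkb, Kif20a, Tpx2 and Foxm1. Both strands were searched. The CHR was taken as TTTGAA with its known variant forms TTCGAA and also TTTAAA. The NF-Y box was taken as CCAAT. The E2F site was taken as TTCCCGC with its variant forms TTGGCGC and also TTCGCGC.

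The CHR letters were in 24 of 25 mitosis promoters (96%), in 5 of 14 replication promoters (35.7%) and in 21.8% of the 11812 promoters of tested genes. Nusap1, a spindle assembly gene, was the mitosis member without them. The E2F letters ran the other way, with 4 of 25 mitosis promoters (16%), 8 of 14 replication promoters (57.1%) and 13.3% of all tested promoters. The CCAAT box was in 80% of mitosis and 78.6% of replication promoters, against 37.6% of all. CCAAT and CHR stood together in 80% of mitosis promoters, 35.7% of replication promoters and 8.48% of all. Within 50 bases of the start, a window chosen after the values were seen, CHR was in 84% of mitosis promoters, 21.4% of replication promoters and 5.97% of all. In that window E2F was in 4% of mitosis promoters, in only 3 of 14 replication promoters (21.4%) and in 5.12% of all. CCAAT was there in 52% of mitosis promoters, 57.1% of replication promoters and 14.3% of all. An E2F match overlapped a CCAAT box in 2 members. Median GC content was 60.7% in mitosis promoters, 57.5% in replication promoters and 60% in all tested promoters. These shares describe letters in a window and show no binding.

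**Figure D1:**
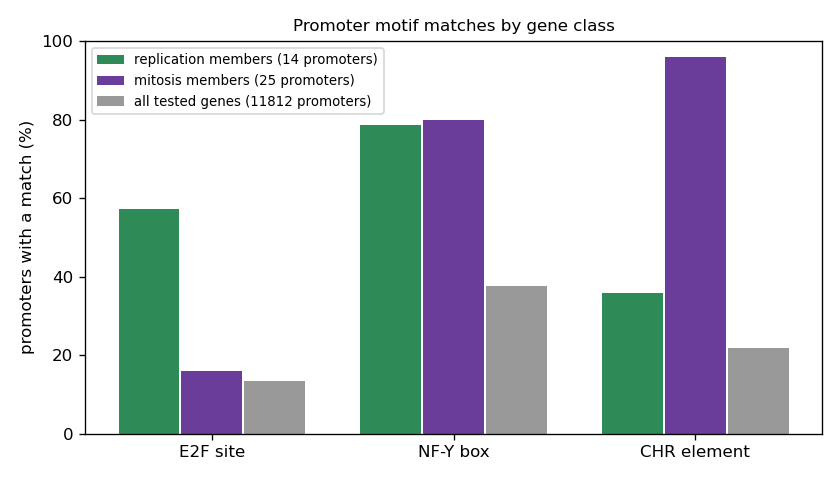
Percent of promoters (y axis) that hold the E2F, NF-Y (CCAAT) or CHR letters on either strand, for replication members, mitosis members and all tested genes. CHR stands at 96% in mitosis and 35.7% in replication promoters, and E2F at 16% and 57.1%.

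For members described singly below, the match nearest the start is shown, of E2F in replication genes and of CHR in mitosis genes. The motif was set by class beforehand, so these lines do not compare the 2 classes. The mitosis genes Ccnb1, Cdk1 and Mki67 also hold the E2F letters, and the replication gene Rrm2 holds the CHR letters. Each line reads 5′ to 3′ on the gene's strand with the matching letters in capitals and 10 bases on each side. A match on the opposite strand appears as its reverse complement. Those of the replication genes Mcm7 (chr5:138171363-138171389, minus strand) and Cdc6 (chr11:98908003-98908029, plus strand) are E2F matches. Mcm3 and Cdt1 also hold the E2F letters. They are not shown, because no match had 10 bases on each side between 250 bases before and 30 after the start. The RefSeq start of Cdc6 lies 350 bases inside the deposited gene, so its window is within the gene whose TPM is given. That of Mcm10 lies 447 bases from the deposited start, and in the other 38 members the starts coincide.
Mcm7: cgctagcgaaTTCCCGCgtccactgga
Cdc6: ccggtggagaGCGGGAAatcgcctggg

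Those of the mitosis genes are CHR matches. They lie at chr13:100786513-100786538 (Ccnb1, minus), chr10:69352912-69352937 (Cdk1, minus), chr9:83834686-83834711 (Ttk, plus) and chr11:117849007-117849032 (Birc5, plus). The others lie at chr11:99024197-99024222 (Top2a, minus), chr7:135716462-135716487 (Mki67, minus), chr5:30666859-30666884 (Cenpa, plus) and chr2:164769890-164769915 (Ube2c, plus).
Ccnb1: cggcccggggTTTAAAcctaagcccg
Cdk1: ccgcggcgagTTTGAAactgctggca
Ttk: gcggggaaatTTCAAAcgtgtttccg
Birc5: gcggacatgcTTTAAAgaggtgcccc
Top2a: tagataaaggTTCAAAtgaaactagg
Mki67: gccgttttggTTTGAAtcgggcgggc
Cenpa: aaagttgggaTTTAAAagatgcggtg
Ube2c: agggttgcaaTTCAAAcgcgggcggc

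The match began 15 bases before the start in Cdk1, 17 in Cenpa, 23 in Top2a, 29 in Ube2c, 42 in Ccnb1 and 98 in Mki67. In Birc5 it lay farthest out, 220 bases before the start, and in Ttk it began 8 bases after it. Ttk and Cdk1, whose matches began nearest the start among these 8 genes, had log2 fold changes of opposite sign between the groups, -0.08 and 0.46.

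Longer promoters are given for the 2 replication members with the highest mean TPM and an entry and for the 2 called mitosis members with the smallest p and an entry. They run from 250 bases before to 30 after the start with the matches in capitals: Pcna (chr2:132253151-132253430, minus strand), Mcm7 (chr5:138171237-138171516, minus), Cenpa (chr5:30666636-30666915, plus) and Birc5 (chr11:117848987-117849266, plus). Pcna has 1 CCAAT box on the opposite strand, Mcm7 has 1 E2F match and 1 such box, Cenpa has 2 such boxes and 2 CHR matches, and Birc5 has 1 CHR match.
Pcna: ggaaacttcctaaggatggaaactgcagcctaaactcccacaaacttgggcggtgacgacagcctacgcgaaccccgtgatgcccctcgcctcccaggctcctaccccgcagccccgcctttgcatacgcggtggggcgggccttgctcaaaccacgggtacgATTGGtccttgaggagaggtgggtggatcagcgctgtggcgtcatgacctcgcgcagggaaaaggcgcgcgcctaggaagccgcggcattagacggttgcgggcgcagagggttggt
Mcm7: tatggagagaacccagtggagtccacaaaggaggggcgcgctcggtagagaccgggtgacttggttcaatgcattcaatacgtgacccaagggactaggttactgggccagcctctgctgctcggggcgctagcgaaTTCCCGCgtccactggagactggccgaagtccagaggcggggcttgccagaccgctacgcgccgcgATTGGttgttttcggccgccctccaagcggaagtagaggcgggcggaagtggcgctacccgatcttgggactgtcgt
Cenpa: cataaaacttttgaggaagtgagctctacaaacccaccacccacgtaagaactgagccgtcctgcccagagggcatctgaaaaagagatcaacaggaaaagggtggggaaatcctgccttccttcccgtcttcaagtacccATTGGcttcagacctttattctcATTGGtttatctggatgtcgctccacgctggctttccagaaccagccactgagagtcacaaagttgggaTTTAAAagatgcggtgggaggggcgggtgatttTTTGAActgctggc
Birc5: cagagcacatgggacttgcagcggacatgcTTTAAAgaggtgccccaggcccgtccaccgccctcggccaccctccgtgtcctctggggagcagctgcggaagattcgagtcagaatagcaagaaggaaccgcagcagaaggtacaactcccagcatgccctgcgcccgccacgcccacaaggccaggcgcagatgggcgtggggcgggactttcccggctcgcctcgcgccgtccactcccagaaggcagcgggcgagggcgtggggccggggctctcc

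The libraries held between 10213772 and 13868660 reads with anti-CTLA-4 and between 10914657 and 13774477 reads with S. epi alone, recovered from the deposited values. Reads of a member in a library ran from 23 (Ccne1) to 4873 (Mki67), and 33 of 50 members had at least 100 reads in every library. The median coefficient of variation of a member was 15.7% among anti-CTLA-4 libraries and 15.4% among S. epi alone libraries. Counting alone gives a median error of 7.77% in the library with the fewest reads. The coefficient of variation among S. epi alone libraries was above the counting error in 45 of 50 members.

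Libraries differed along the whole set, apart from the groups. Anti-CTLA-4 replicate 4 was the highest of the 9 libraries in 37 of 50 members, and S. epi alone replicate 4 was the lowest in 35. Anti-CTLA-4 replicates 1 to 4 lay above a member's median over all libraries in 26, 19, 47 and 49 members, and S. epi alone replicates 1 to 5 in 1, 0, 36, 3 and 19. S. epi alone replicate 3 was thus on the upper side in more members than anti-CTLA-4 replicates 1 and 2. The members summed to 674 ± 103 TPM with anti-CTLA-4, range 573 to 809, and to 537 ± 71.9 TPM with S. epi alone, range 442 to 627 (SD, n = 4 and n = 5), so the ranges overlapped.

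Markers of the tissue's cell types moved between the groups as well. The keratin genes of basal keratinocytes were abundant in every library: Krt5 averaged 3277 ± 329 TPM with anti-CTLA-4 and 2946 ± 283 TPM with S. epi alone (limma adjusted p = 0.410). Krt5 and Krt14 were the only ones of 8 basal markers above 0 in log2 fold change. The other 6 were below 0, with Krt15 at -0.44 and Col17a1, which anchors basal cells and was called lower, at -0.30, and the median of the 8 was -0.19. Summed over the 8, libraries ran from 7196 to 8481 TPM with anti-CTLA-4 and from 6747 to 8068 TPM with S. epi alone, with 0 markers called higher and 1 lower. Krt5 and Krt14 made up 88.1% to 90.5% of that sum with anti-CTLA-4 and 80.8% to 89.0% with S. epi alone. Anti-CTLA-4 replicate 4 had the highest sum and S. epi alone replicate 4 the lowest, as in most members, but over the other 6 markers these libraries stood at 806 TPM and 1297 TPM, with S. epi alone replicate 4 the highest of the 9. Suprabasal markers summed to 14240 to 18018 TPM with anti-CTLA-4 and 18346 to 23281 TPM with S. epi alone, with 1 of 6 called higher and 2 lower. Krt10, not called, made up most of the mean sums, with 12600 of 16377 TPM with anti-CTLA-4 and 16685 of 20533 TPM with S. epi alone. Hair follicle markers summed to 59.4 to 74.4 TPM with anti-CTLA-4 and 86.9 to 122 TPM with S. epi alone, and of the 21, 9 could be tested and 5 were called lower. Dlx3, 1 of the 5, made up 34.8 of a mean sum of 65.8 TPM with anti-CTLA-4 and 51.8 of 104 TPM with S. epi alone.

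Immune markers were higher with anti-CTLA-4. T cell markers summed to 201 to 249 TPM with anti-CTLA-4 and 122 to 153 TPM with S. epi alone, with 11 of 14 called higher. Thy1, 1 of the 11, made up most of the mean sums, with 131 of 221 TPM with anti-CTLA-4 and 97.7 of 139 TPM with S. epi alone. Monocyte and macrophage markers summed to 637 to 949 TPM with anti-CTLA-4 and 347 to 524 TPM with S. epi alone, with 9 of 11 higher. Pan-leukocyte markers summed to 306 to 403 TPM with anti-CTLA-4 and 119 to 164 TPM with S. epi alone, with all 6 higher. Anti-CTLA-4 replicate 4, highest in most members, was the lowest of its group in the last 2 sums. Fibroblast markers (0 of 6 called) and skeletal muscle markers (1 of 9 lower) overlapped between the groups. Fibroblast sums were 1463 to 1881 TPM with anti-CTLA-4 and 1254 to 1930 TPM with S. epi alone, and muscle sums were 1068 to 1500 TPM with anti-CTLA-4 and 1216 to 1920 TPM with S. epi alone. No marker was at 0 in all libraries, and the part of these lists in the results below was not tested.

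Of the 50 members, 5 were higher with anti-CTLA-4 at a limma adjusted p under 0.05 and 0 were lower. That is 10% of the members, against 7.16% of all tested genes higher and 4.48% lower, so the share of members called higher was near the background. The 5 called genes were Cenpa, Kif20a, Birc5, Ccnb1 and Cdk1, all of mitosis (positions are on mm10, as the deposited table gives them). The call count rested on single libraries. It was 0 without anti-CTLA-4 replicate 3 (background 4.55%) or 4 (5.63%), and 0 without S. epi alone replicate 1 (5.24%), 2 (5.38%) or 4 (5.63%). Without anti-CTLA-4 replicate 1 the count was 1, Kif20b (background 5.89%), and without replicate 2 it was 4, of which Cenpa and Kif20a were among the 5 (5.47%). Without S. epi alone replicate 3 the count was 9, with all 5 among them (7.02%), and without replicate 5 it was 3, of which Cenpa and Ccnb1 were among the 5 (6.35%). Of the 9 fits that left out a library, Cenpa was called in 3, Kif20a and Ccnb1 in 2 each, and Birc5 and Cdk1 in 1 each. With both replicates 4 left out, a setting chosen after the data were seen, 0 members were called and the background was 4.45%.

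The direction was more even than the calls. The log2 fold change (anti-CTLA-4 minus S. epi alone) was above 0 in 47 of 50 members, against 47% of tested genes. Its median was 0.32 over the members and -0.014 over all tested genes. At an unadjusted p under 0.05, 29 of 50 members were higher, against 13.6% of tested genes. Members shared their high and low libraries, with anti-CTLA-4 replicate 4 highest in 37 and S. epi alone replicate 4 lowest in 35. These counts are therefore not counts of independent genes. The libraries of the 2 groups did not overlap in 4 of 50 members, Ccnb1, Top2a, Kif20a and Cenpa, each higher with anti-CTLA-4. No overlap in this direction was seen in 8.02% of tested genes, so the count of members was near the background. Without both replicates 4, the log2 fold change was above 0 in 44 of 50 members, with a median of 0.18. Of all tested genes 1124 were called higher and 704 lower, a split that scaling moved to 1314 and 1429 with quantile normalization, 1302 and 1313 with a common median, and 1205 and 1306 without the 50 most abundant genes.

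**Figure D2:**
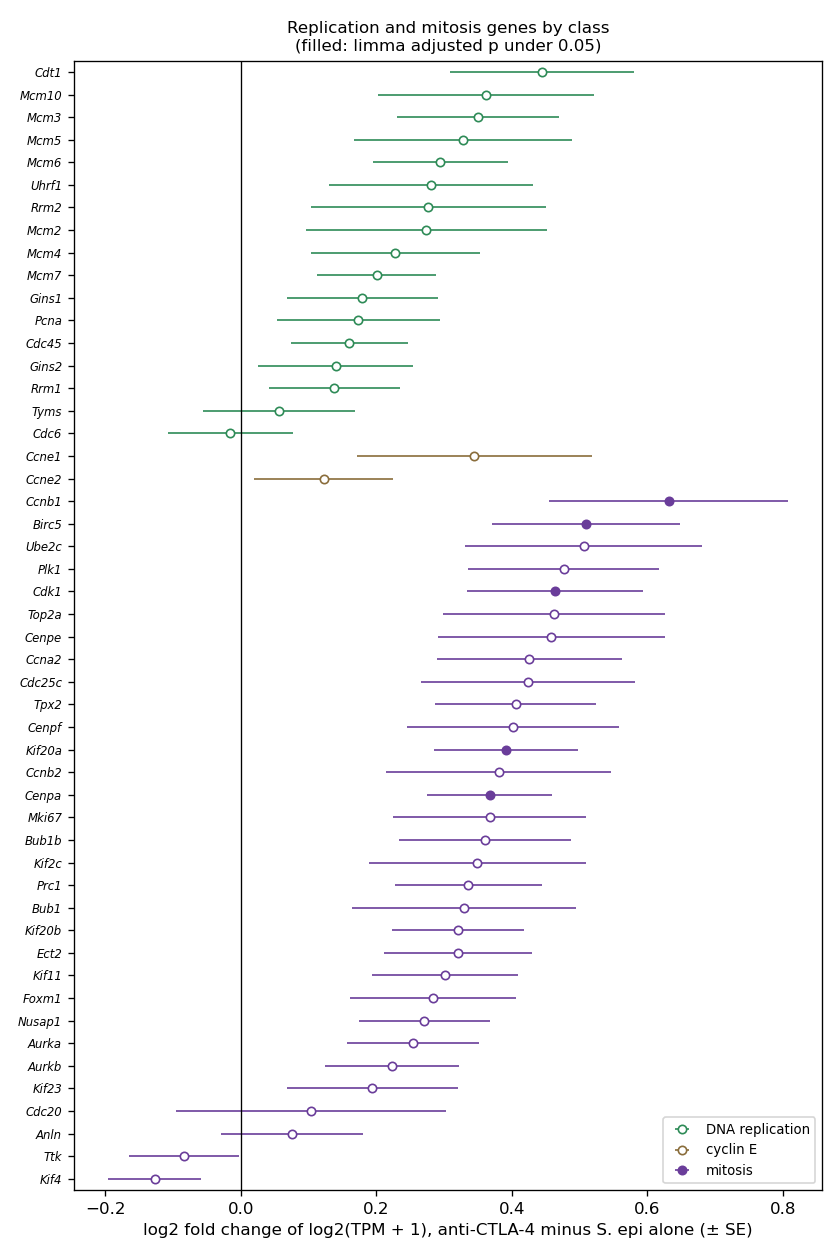
Log2 fold change of each member (x axis, anti-CTLA-4 minus S. epi alone on log2(TPM + 1), with its standard error), in rows by class, filled where the limma adjusted p is under 0.05. Points lie right of 0 in 47 of 50 members, and the 5 filled points are mitosis genes.

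By class, 0 of 17 replication genes and 5 of 31 mitosis genes (16.1%) were called, against 7.16% of all tested genes higher, and neither of the 2 cyclin E genes was. At an unadjusted p under 0.05 there were 5 replication and 24 mitosis genes (background 13.6% higher), and by limma with voom weights on the recovered reads there were 3 and 17 (background 11.5% higher). The median log2 fold change was 0.23 over replication genes and 0.36 over mitosis genes, above 0 in 16 of 17 and 29 of 31.

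The mean of log2(TPM + 1) over a class gave 1 level per library. The replication level was 3.50, 3.39, 3.61 and 3.75 in anti-CTLA-4 replicates 1 to 4, against 3.23, 3.26, 3.57, 3.14 and 3.46 in S. epi alone replicates 1 to 5. The mitosis level was 3.27, 3.22, 3.45 and 3.61 in anti-CTLA-4 libraries, against 3.03, 3.03, 3.25, 2.78 and 3.20 in S. epi alone libraries. Both levels overlapped between the groups, because S. epi alone replicate 3 lay above anti-CTLA-4 replicate 2 in each. The replication level was 0.23 higher on the log2 scale with anti-CTLA-4 and the mitosis level 0.33 higher.

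Replication minus mitosis, the balance of the classes within a library, was 0.175 ± 0.0373 with anti-CTLA-4 and 0.276 ± 0.0659 with S. epi alone on the log2 scale (SD, n = 4 and n = 5), a difference of -0.10. The ranges, 0.145 to 0.230 with anti-CTLA-4 and 0.201 to 0.365 with S. epi alone, overlapped through anti-CTLA-4 replicate 1. In 3 of 4 anti-CTLA-4 libraries the balance was smaller than in any S. epi alone library. It was described without a test, as the members were chosen with results known.

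**Figure D3:**
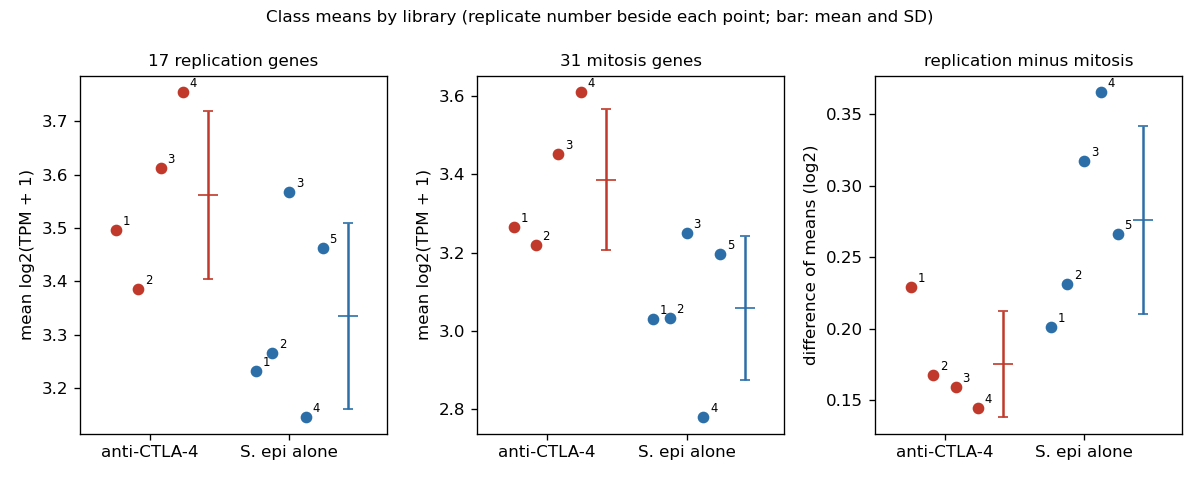
Mean log2(TPM + 1) of the 17 replication genes (left), of the 31 mitosis genes (middle) and their difference (right), a point for each library with its replicate number, beside the group mean and SD. Anti-CTLA-4 replicate 4 is highest and S. epi alone replicate 4 lowest in both levels, and the difference is 0.175 with anti-CTLA-4 and 0.276 with S. epi alone.

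Among genes that load and start the helicase, Cdt1, the loader that geminin inhibits, had the largest log2 fold change of the 17 replication genes on log2(TPM + 1). Mcm10 exceeded it with a pseudocount of 0.1 (0.50 for Mcm10 and 0.48 for Cdt1) and with voom on the recovered reads (0.58 and 0.52). Cdt1 was at 13.8, 14.3, 17.2 and 13.5 TPM in anti-CTLA-4 libraries and at 9.68, 8.86, 14.6, 9.29 and 10.8 TPM in S. epi alone libraries. S. epi alone replicate 3 lay above 3 of the 4 anti-CTLA-4 libraries, and the other 4 S. epi alone libraries were below all of them. Its log2 fold change was 0.44 (SE 0.14, limma adjusted p = 0.0660), which missed the threshold, and the adjusted p was 0.00923 without S. epi alone replicate 3 and above 0.05 with each of the other 8 libraries left out. Cdc6, the other loader, was at 2.87, 2.50, 3.57 and 3.21 TPM with anti-CTLA-4 and at 3.11, 2.99, 3.31, 2.65 and 3.28 TPM with S. epi alone. The E2F letters were in the promoters of both loaders. The values of Cdc6 interleaved, with a log2 fold change of -0.02 (SE 0.09, limma adjusted p = 0.938) whose sign changed with the setting.

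The helicase subunits all had log2 fold changes above 0 and none was called. Mcm3 was at 11.1, 10.497, 11.1 and 12.1 TPM with anti-CTLA-4 and at 6.88, 8.34, 11.03, 7.52 and 9.64 TPM with S. epi alone. Only S. epi alone replicate 3 reached the anti-CTLA-4 values of Mcm3 (log2 fold change 0.35, SE 0.12, limma adjusted p = 0.0928). Mcm4 averaged 21.9 ± 3.48 TPM with anti-CTLA-4 and 18.6 ± 2.64 TPM with S. epi alone, with overlapping libraries. Mcm7, the most abundant subunit on this scale, was at 33.1, 28.4, 34.1 and 37.1 TPM with anti-CTLA-4 and at 25.8, 29.9, 31.1, 26.5 and 30.1 TPM with S. epi alone (log2 fold change 0.20, SE 0.09, adjusted p = 0.182). Anti-CTLA-4 replicate 2 of Mcm7 lay inside the S. epi alone range. The microRNA genes Mir25, Mir106b and Mir93 lie within Mcm7 on the same strand, and the sources used here do not say how shared reads were counted.

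Mcm10, which helps to start the helicase, was at 2.79, 2.28, 2.99 and 3.67 TPM with anti-CTLA-4 and at 1.27, 1.77, 2.24, 2.29 and 2.84 TPM with S. epi alone. Its log2 fold change of 0.36 (SE 0.16, limma adjusted p = 0.184) came with S. epi alone replicate 5 above anti-CTLA-4 replicates 1 and 2. The remaining helicase genes were Mcm2, Mcm5, Mcm6, Cdc45, Gins1 and Gins2, with log2 fold changes of 0.27, 0.33, 0.29, 0.16, 0.18 and 0.14. Of these Mcm6 had the lowest adjusted p, 0.0910, with 14.6 ± 1.90 TPM with anti-CTLA-4 and 11.7 ± 1.21 TPM with S. epi alone.

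Pcna, the sliding clamp, was the most abundant replication gene on the deposited scale, which is per genomic span. It was at 44.4, 35.3, 47.7 and 56.9 TPM with anti-CTLA-4 and at 38.8, 37.4, 43.6, 38.5 and 42.8 TPM with S. epi alone. The anti-CTLA-4 libraries of Pcna spanned the S. epi alone range on both sides, and the log2 fold change was 0.17 (SE 0.12, limma adjusted p = 0.403). Rrm2, the regulated subunit of ribonucleotide reductase, was at 26.6, 24.6, 27.9 and 39.2 TPM with anti-CTLA-4 and at 21.1, 23.1, 33.4, 19.0 and 24.8 TPM with S. epi alone. S. epi alone replicate 3 stood above 3 anti-CTLA-4 libraries in Rrm2 (log2 fold change 0.28, adjusted p = 0.351). Rrm1, the other subunit, Tyms, which makes thymidylate, and Uhrf1, which carries DNA methylation through replication, had log2 fold changes of 0.14, 0.06 and 0.28, and none passed. Tyms fell below 0 without either replicate 4.

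The cyclin E genes, whose products start S phase with Cdk2, did not pass either. Ccne1 was at 2.40, 2.81, 3.06 and 3.88 TPM with anti-CTLA-4 and at 2.06, 1.41, 2.78, 1.71 and 3.12 TPM with S. epi alone (log2 fold change 0.34, SE 0.17, limma adjusted p = 0.240). Ccne2 was at 10.46, 9.79, 12.4 and 13.1 TPM with anti-CTLA-4 and at 8.78, 10.9, 11.5, 11.1 and 9.72 TPM with S. epi alone (log2 fold change 0.12, SE 0.10, adjusted p = 0.502). Both pairs of groups overlapped, and Ccne1 had the fewest reads of any member.

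**Figure D4:**
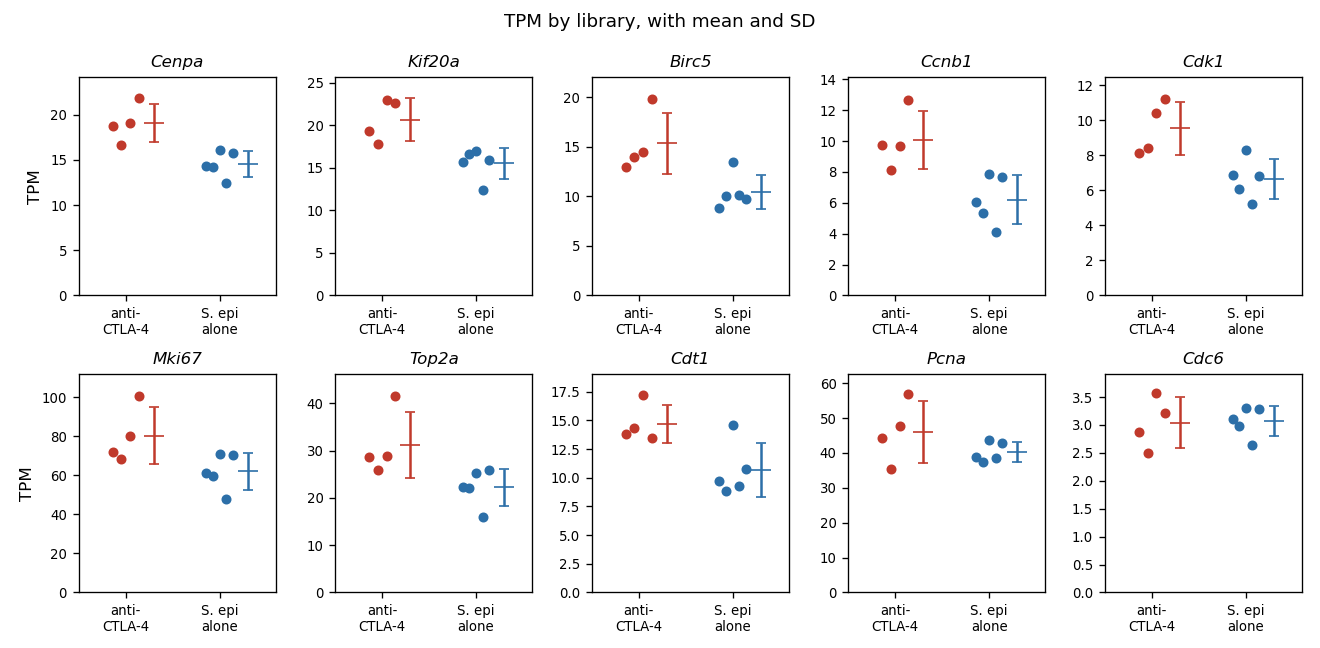
TPM by library for 10 members, with anti-CTLA-4 on the left and S. epi alone on the right of each panel and the mean and SD beside the points. The groups do not overlap in Cenpa, Kif20a, Ccnb1 and Top2a (4 of 50 members, near the 8.02% of tested genes), and interleave in Pcna and Cdc6.

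Among genes of mitotic entry, those of cyclin B1 and its kinase were called higher. Of the 9 fits that left out a library, Ccnb1 was called in only 2 and Cdk1 in 1. Ccnb1 (chr13:100778739-100786486, minus strand), which encodes cyclin B1, was at 9.77, 8.13, 9.65 and 12.7 TPM with anti-CTLA-4 and at 6.06, 5.32, 7.88, 4.12 and 7.65 TPM with S. epi alone. Every anti-CTLA-4 library lay above every S. epi alone library, by a narrow gap between anti-CTLA-4 replicate 2 and S. epi alone replicate 3. Its log2 fold change of 0.63 (SE 0.18, limma adjusted p = 0.0478) was the largest of the 50 members, though not without both replicates 4, where Cdt1 had the largest.

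Cdk1 (chr10:69335146-69352912, minus strand), the kinase that cyclin B activates, was at 8.15, 8.40, 10.4 and 11.2 TPM with anti-CTLA-4 and at 6.90, 6.08, 8.29, 5.20 and 6.79 TPM with S. epi alone. S. epi alone replicate 3 lay between anti-CTLA-4 replicates 1 and 2, so the groups touched (log2 fold change 0.46, SE 0.13, limma adjusted p = 0.0482). Ccna2, which encodes cyclin A2, was at 31.03, 28.5, 34.3 and 40.8 TPM with anti-CTLA-4 and at 24.5, 22.5, 29.8, 19.6 and 27.9 TPM with S. epi alone. It missed the threshold, with a log2 fold change of 0.43 (SE 0.14, adjusted p = 0.0773) and only S. epi alone replicate 3 inside the anti-CTLA-4 range. Ccnb2 (cyclin B2), Cdc25c, the phosphatase that activates Cdk1, and Foxm1, a transcription factor of mitosis genes, had log2 fold changes of 0.38, 0.42 and 0.28 and did not pass. Ccna2 overlaps Exosc9 on the other strand, and whether strand was used in counting is not given.

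Of the mitotic kinases and checkpoint genes, Birc5 was called higher, but in only 1 of the 9 fits that left out a library. Birc5 encodes survivin, the subunit of the chromosomal passenger complex that brings Aurora B to centromeres. Birc5 (chr11:117849237-117855743, plus strand) was at 13.0, 13.99, 14.5 and 19.8 TPM with anti-CTLA-4 and at 8.82, 9.997, 13.4, 10.1 and 9.76 TPM with S. epi alone. The groups touched only where S. epi alone replicate 3 stood above anti-CTLA-4 replicate 1, and the log2 fold change was 0.51 (SE 0.14, limma adjusted p = 0.0441). Aurkb itself had 12.01 ± 1.89 TPM with anti-CTLA-4 and 10.1 ± 0.703 TPM with S. epi alone (log2 fold change 0.22, adjusted p = 0.187).

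Plk1, a kinase of entry, spindle and cytokinesis, came close to the threshold, with 8.32 ± 1.89 TPM with anti-CTLA-4 and 5.65 ± 0.882 TPM with S. epi alone (log2 fold change 0.48, limma adjusted p = 0.0591). Aurka, a centrosome kinase, and the checkpoint genes Bub1 and Bub1b had log2 fold changes of 0.25, 0.33 and 0.36. Ttk, the checkpoint kinase also called Mps1, stood apart from these in sign. Ttk was at 3.37, 3.87, 4.16 and 4.54 TPM with anti-CTLA-4 and at 4.39, 4.07, 4.71, 4.20 and 3.99 TPM with S. epi alone, with no anti-CTLA-4 library above the S. epi alone range. Its log2 fold change was -0.08 (SE 0.08, limma adjusted p = 0.567).

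Of the kinesins, motors that move along microtubules, Kif20a was called higher, but in only 2 of the 9 fits that left out a library. Kif20a (chr18:34625033-34633277, plus strand), which acts in cytokinesis, was at 19.4, 17.8, 23.0 and 22.7 TPM with anti-CTLA-4 and at 15.7, 16.6, 16.9, 12.4 and 15.9 TPM with S. epi alone. The groups did not overlap, 4 of 5 S. epi alone libraries lay close together and replicate 4 lay below them (log2 fold change 0.39, SE 0.11, limma adjusted p = 0.0441). Its gene overlaps Cdc23 on the other strand.

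Kif20b, Kif11, Kif2c and Kif23, which act in cytokinesis, spindle bipolarity, microtubule removal and the central spindle, had log2 fold changes of 0.32, 0.30, 0.35 and 0.19 and did not pass. Kif4, a chromosome-bound motor on the X chromosome, had the lowest log2 fold change of the members on log2(TPM + 1). It was at 4.31, 3.88, 4.08 and 4.74 TPM with anti-CTLA-4 and at 4.45, 4.57, 4.64, 4.84 and 5.16 TPM with S. epi alone, so that 3 of 4 anti-CTLA-4 libraries were below all S. epi alone libraries. The log2 fold change of -0.13 (SE 0.07, limma adjusted p = 0.278) did not pass, and it stayed below 0 with each library left out, between -0.17 and -0.093.

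Cenpa (chr5:30666886-30674837, plus strand), the histone H3 variant that marks centromeres, had the smallest p of the 50 on log2(TPM + 1). It was at 18.8, 16.7, 19.0 and 21.9 TPM with anti-CTLA-4 and at 14.3, 14.2, 16.1, 12.5 and 15.7 TPM with S. epi alone. The groups did not overlap, and the means were 19.1 ± 2.14 TPM with anti-CTLA-4 and 14.6 ± 1.42 TPM with S. epi alone (log2 fold change 0.37, SE 0.09, limma adjusted p = 0.0331). It was called in 3 of the 9 fits that left out a library, with an adjusted p of up to 0.0818. The kinetochore genes Cenpe, a kinesin, and Cenpf had log2 fold changes of 0.46 and 0.40 and did not pass.

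The most abundant members on the deposited scale were the proliferation marker Mki67 and, of the mitosis genes after it, Ccna2 and Top2a. Mki67, whose protein coats mitotic chromosomes, was at 71.9, 68.6, 80.3 and 101 TPM with anti-CTLA-4 and at 61.2, 59.5, 71.1, 47.8 and 70.7 TPM with S. epi alone. Anti-CTLA-4 replicate 2 lay below S. epi alone replicates 3 and 5, and the log2 fold change was 0.37 (SE 0.14, limma adjusted p = 0.135). Top2a, the topoisomerase that untangles sister chromosomes, was at 28.6, 25.96, 28.8 and 41.5 TPM with anti-CTLA-4 and at 22.2, 22.0, 25.2, 16.0 and 25.91 TPM with S. epi alone. The groups were separated by anti-CTLA-4 replicate 2 over S. epi alone replicate 5, the narrowest gap of the 4 members without overlap, and Top2a was not called (log2 fold change 0.46, SE 0.16, adjusted p = 0.103).

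Of the mitotic exit genes, Ube2c, the ubiquitin-conjugating enzyme of the anaphase-promoting complex, was at 22.5, 19.8, 27.3 and 36.5 TPM with anti-CTLA-4 and at 19.3, 18.2, 21.2, 13.7 and 18.0 TPM with S. epi alone. Anti-CTLA-4 replicate 4 was above the rest and replicate 2 was below S. epi alone replicate 3 (log2 fold change 0.51, SE 0.17, limma adjusted p = 0.0957). Cdc20, the activator of the same complex, was at 22.0 ± 5.31 TPM with anti-CTLA-4 and 20.4 ± 4.50 TPM with S. epi alone (log2 fold change 0.10, adjusted p = 0.788), and its sign turned without either replicate 4, to -0.017 without that of anti-CTLA-4 and -0.023 without that of S. epi alone. The spindle assembly genes Tpx2 and Nusap1 had log2 fold changes of 0.41 and 0.27, with adjusted p of 0.0568 and 0.107. The cytokinesis genes Prc1, Ect2 and Anln had 0.34, 0.32 and 0.08, and none passed.

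Other genes of the same processes were counted on lists chosen by textbook role, also with earlier results of these data known. Over all tested genes 7.16% were called higher, 4.48% were called lower and 47% had a log2 fold change above 0. Of 46 further replication genes, 6 (13%) were higher and 0 lower, with a median log2 fold change of 0.11 and 41 above 0. The 4 with the smallest p were Pold3 (a subunit of DNA polymerase delta), Rfc2 (a clamp loader subunit), Gmnn and Rpa2 (a single-strand binding subunit). Gmnn, which encodes the Cdt1 inhibitor geminin, averaged 6.30 ± 0.759 TPM with anti-CTLA-4 and 4.42 ± 0.709 TPM with S. epi alone (log2 fold change 0.43, limma adjusted p = 0.0334). Pold3 averaged 9.02 ± 0.284 TPM with anti-CTLA-4 and 7.11 ± 0.433 TPM with S. epi alone (log2 fold change 0.31, adjusted p = 0.0116).

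Of 52 further mitosis genes, 9 (17.3%, against 7.16% of all tested genes) were higher and 0 lower, with a median log2 fold change of 0.27 and 49 above 0, against 47% of all. The 4 with the smallest p were Smc4 and Ncapg, subunits of condensin, Troap and the kinesin Kifc1. Smc4 averaged 30.2 ± 2.37 TPM with anti-CTLA-4 and 23.5 ± 0.891 TPM with S. epi alone (log2 fold change 0.34, limma adjusted p = 0.00955).

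Regulators of the cycle had log2 fold changes of both signs, 19 above 0 and 14 below. Of 34 listed, 33 were tested (all but Cdkn2a), 2 (6.06%) were called higher and 1 was called lower. Over all tested genes 7.16% were called higher and 4.48% lower, so these counts were not above the background. The median log2 fold change was 0.03. Cdkn2d, an inhibitor of the cyclin D kinases, averaged 19.8 ± 3.14 TPM with anti-CTLA-4 and 13.4 ± 1.49 TPM with S. epi alone (log2 fold change 0.53, limma adjusted p = 0.0176). The D cyclins Ccnd3 and Ccnd2 had opposite signs. Ccnd3 averaged 39.2 ± 3.66 TPM with anti-CTLA-4 and 30.6 ± 2.53 TPM with S. epi alone (log2 fold change 0.35, adjusted p = 0.0261), and Ccnd2 averaged 43.4 ± 3.13 TPM with anti-CTLA-4 and 56.8 ± 5.77 TPM with S. epi alone (log2 fold change -0.38, adjusted p = 0.0193).

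The number of calls depended on the setting, while the direction of most members did not change. The largest count was 20 of 50, by limma with voom weights on the recovered reads (background 11.5%), and 16 of 50 passed at a threshold of 0.1 (background 10.2%). Without the ribosomal entries Rn45s and Mir6236, 10 passed (background 8.84%). Robust variances gave 7 (7.28%), pseudocounts of 0.5 and 0.1 gave 5 (7.13%) and 4 (6.93%), and leaving out the 50 most abundant genes gave 4 (7.67%). A filter of 5 TPM left 34 members, of which 5 passed (7.2%).

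Counts of 3 came from quantile normalization (8.37%), a common median (8.29%) and variances without a trend (7.07%), and these shares lay below their background. A count of 1 came from array weights (6.46%) and from testing without an expression filter (4.48%), with Cenpa the gene that passed in both. The replicate number as a block gave 0 (3.78%). Only S. epi alone has a replicate 5, so the block takes up that library. The log2 fold change of Ccnb1 was 0.70 with the block and 0.70 without that library. The block also leaves less to estimate the spread from. With the filter of 5 TPM all 34 members had a log2 fold change above 0, and in each of the other alternatives between 44 and 48 of the 50 did. That filter removed Cdc6, Ttk and Kif4, the 3 members below 0 on log2(TPM + 1), which averaged 3.05, 4.14 and 4.52 TPM. Another filter, the threshold of 0.1, robust variances and variances without a trend leave each fold change as it was. The direction could not change in these settings.

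**Figure D5:**
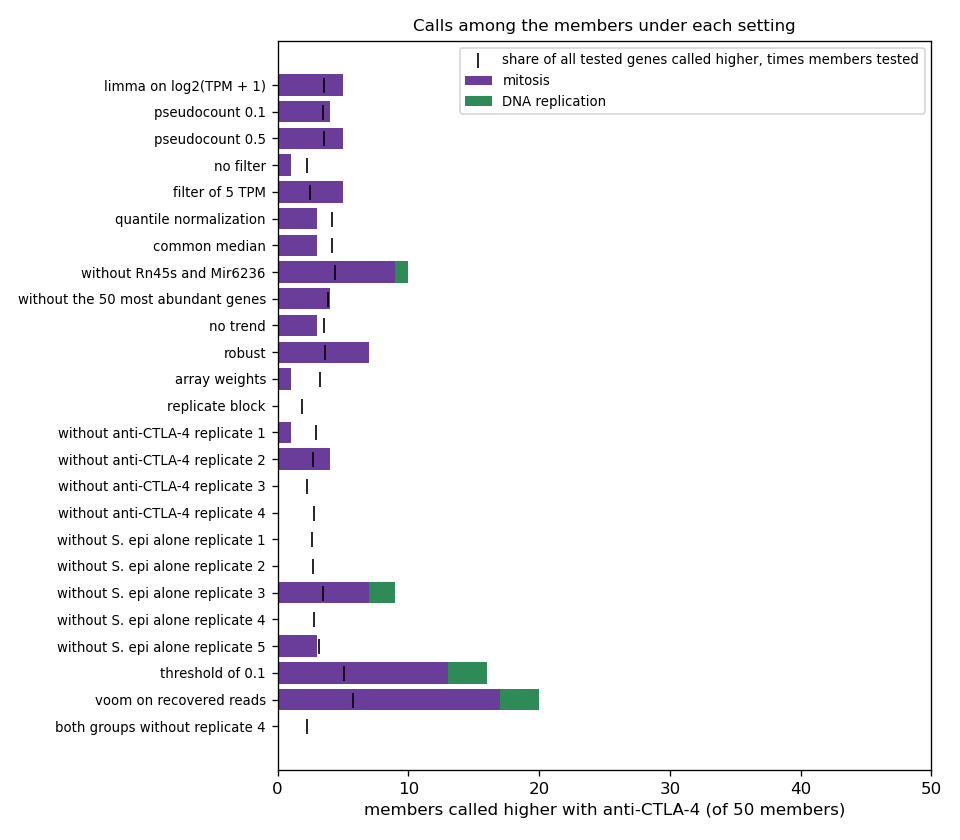
Members called higher with anti-CTLA-4 (x axis) under each setting (rows), stacked by class, with a tick at the share of all tested genes called higher times the members tested. Counts run from 0 to 20, and mitosis genes make up all 5 calls of limma on log2(TPM + 1) and 17 of the 20 with voom.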

How the data were processed

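Total RNA of whole ear skin was sequenced, and the authors deposited TPM per gene and library for 25124 genes with positions on mm10. STAR, HOMER and DESeq2 are named as tools per the submitters' processing notes. The sources used here do not give their roles, the annotation or the use of strand. The deposited TPM was divided by the table's length column, which equals end minus start for 99.2% of genes, so levels are per genomic span. TPM times that length was a whole multiple (within 0.1) of 1 constant per library for 100% of checked values (genes of 500 to 20000 bases, under 100 reads), which gave read numbers. Intervals from them would cover counting error only.

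The tested genes reached 1 TPM in at least 4 libraries. On the log2(TPM + 1) scale, limma (version 3.58.1, R 4.3.3) fitted the group means with variances that follow the mean and no covariate, two-sided. P-values were adjusted by Benjamini-Hochberg over all 15704 genes and called under 0.05. Because of the pseudocount of 1, fold changes of low genes are understated. The procedure was tested on simulated data, where it called 88% of genes with a true log2 fold change of 1 in size and 54% of those with 0.5. Smaller changes were not simulated, so a member that did not pass cannot be taken as unchanged. Class levels and promoter matches were described without a test.

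The members, classes and lists were chosen with earlier results of these data known. Described singly are called members, in each of the replication and mitosis classes the 4 most abundant members, the 3 largest rises and up to 3 falls in log2 fold change, both cyclin E genes, and up to 4 called genes of smallest p in each further list. Where other members are given, it is for their role. Promoters were matched by symbol, chromosome and strand.

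Alternatives were a block for the replicate number, array weights, other pseudocounts, filters, scalings and variance models, each library left out, and a threshold of 0.1. The fits with voom on recovered reads (genes with at least 10 reads in 4 libraries) and without both replicates 4 were added after the data were seen.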

Additional observations from a re-analysis of the deposited data

Results flagged for a closer look

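Of 106 groups of values examined (each member and each class level, in each group of libraries), 3 held a library whose gap to its nearest neighbour was large against the range of the group, and chance alone gives about 1 in 20. Gins2 was at 6.69 TPM in S. epi alone replicate 3, with the other 4 libraries of its group between 4.88 and 5.35 TPM. Birc5 was at 13.4 TPM in the same library, with the others between 8.82 and 10.1 TPM, and it was called without this library (adjusted p = 0.0188) but not with any of the other 8 libraries left out (0.0501 to 0.0937). Kif20a was at 12.4 TPM in S. epi alone replicate 4, with the others between 15.7 and 16.9 TPM, and it was not called without that library.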

How the results depend on the processing

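Only 4 and 5 libraries, and as few as 23 reads of a member in a library, limit these results. Members called higher numbered 5 (0 replication, 5 mitosis), with 7.16% of all tested genes called higher as background. They numbered 1 with no expression filter (background 4.48%) or with array weights (6.46%). They numbered 3 with quantile normalization (8.37%), a common median (8.29%) or no variance trend (7.07%), below these backgrounds. All of these were mitosis genes. Without Rn45s and Mir6236 there were 10 (1 replication, 9 mitosis, background 8.84%). At a threshold of 0.1 there were 16 (3 and 13, background 10.2%), and with voom on recovered reads 20 (3 and 17, background 11.5%). Without both replicates 4 there were 0 (4.45%). Leaving out each library gave 0 to 9 members, 0 to 2 replication genes and 0 to 7 mitosis genes (backgrounds 4.55% to 7.02%). Pseudocounts of 0.1 and 0.5, a filter of 5 TPM, leaving out the 50 most abundant genes and robust variances gave 4 to 7 (6.93% to 7.67%). No member was called lower under any of these. The cause of these moves was not tested. With the replicate number as a block, 0 members were called (background 3.78%) and the lowest limma adjusted p was 0.0575 (Cdt1). That block takes up S. epi alone replicate 5, which has no counterpart, and leaves less to estimate the spread from. Over all tested genes, deviations of same-numbered libraries from their group means correlated at -0.0933 to 0.0180, and none correlated best with its own number. These correlations do not decide whether the numbers mark a shared batch, which was not tested. 4 members changed sign. Cdc6 (-0.02) went to 0.0067 without Rn45s and Mir6236, 0.0036 with the replicate block, 0.029 with voom, and -0.077 to 0.051 with each library left out. Tyms and Cdc20 went below 0 without either replicate 4, and without both Tyms stood at -0.076, Cdc20 at -0.14 and Anln at -0.033. Differences in class levels kept their sign, at 0.16 to 0.32 for replication, 0.25 to 0.41 for mitosis and -0.12 to -0.079 for replication minus mitosis.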

Other observations

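The deposited TPM was computed per genomic span, introns included. Re-expressed as recovered reads per kb of the longest coding transcript (GENCODE M21), Mki67 ranked 1 of the 50 members on both scales. Ube2c, with a span of 2973 bases and a transcript of 2191, ranked 7 per span and 39 per transcript. Kif4, with a span of 101206 bases and a transcript of 4983, ranked 38 per span and 7 per transcript. A long span also lowers TPM against the pseudocount of 1. The log2 fold change of Mcm10 was 0.36 with it, 0.50 with a pseudocount of 0.1 and 0.58 with voom on recovered reads.

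The ribosomal entries Rn45s and Mir6236 took 6.70% to 8.66% of recovered reads in anti-CTLA-4 libraries and 6.35% to 7.87% in S. epi alone libraries. Of the listed TPM they took 30.6% to 40.2% with anti-CTLA-4 and 32.4% to 37.7% with S. epi alone.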
